A study of Homo sapiens with 3 samples.

Results

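Polycomb repressive complex 2 (PRC2) was followed here through 9 genes on the arrays of a study of Set8b, an enzyme that places a methyl group on histone H4. The genes are the 2 alternative catalytic subunits EZH2 and EZH1, the core partners EED, SUZ12, RBBP4 and RBBP7, and the accessory subunits PHF19, MTF2 and JARID2. They were chosen by their known place in the complex, and all probe sets that the platform annotation gives to exactly 1 of these symbols were taken, 29 of 54613. A further probe set, 213971_s_at, is annotated to SUZ12 and to its pseudogene SUZ12P1 and was left out by this rule. The 29 probe sets cover 9 of the 19775 genes named on the array.

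RNA came from U2OS, an established human osteosarcoma cell line, 5 days after transduction with a retrovirus. The 3 groups, of 1 array each, carried Set8_deltaPIP2 (a stable Set8b that is resistant to the CRL4-Cdt2 ubiquitin ligase), Wt-Set8b, or the empty pMSCV-vector. The cells of all 3 groups were thus infected with a retrovirus, and both Set8b forms were added to cells that carry their own KMT5A, the gene of Set8. With 1 array a group there is no replicate check, no p-value can be given, and every difference is a difference between these arrays.

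PRC2 adds methyl groups to lysine 27 of histone H3, a mark of silenced genes. EZH2 or EZH1 supplies the catalytic SET domain, which is inactive until EED and SUZ12 are bound. EZH2 is typical of dividing cells and its gene is a known target of E2F factors, while EZH1 is more widely expressed and prevails in resting cells. The Polycomb-like proteins PHF19 and MTF2 mark one form of the complex, and JARID2 with AEBP2 marks another.

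Signals are given after quantile normalization of the deposited intensity values, which puts the 3 arrays on the same distribution, and differences are on the log2 scale. A probe set passed the filter on low values if its mean log2 signal over the arrays reached that of a signal of 51.4. The brightest probe set past the filter, by the same mean, stood for a gene. Of the 29 probe sets 24 passed, at least 1 for each of the 9 genes, and the brightest of each gene read 243.5 or more on every array. The SD between probe sets of the same gene, over 5357 genes with several, was 0.39 for stable Set8b over vector, 0.42 for stable Set8b relative to wild-type Set8b and 0.36 for wild-type Set8b over vector. It covers noise of the probes and says nothing about how cultures vary.

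The arrays differed in ways that touch all genes. KMT5A was read by 4 probe sets with differences from vector between -0.76 and 0.90 with stable Set8b and between 0.18 and 1.23 with wild-type Set8b, so it does not settle whether the arrays match their labels. Relative to the vector array, the 18 hybridisation spike-in probe sets had median ratios of 0.796 with stable Set8b and 1.01 with wild-type Set8b. In 24 probe sets of poly-A spike-ins these ratios were 0.467 and 0.441, and there the vector array differed from both others. As a sign of RNA quality, the log2 difference of stable Set8b from vector at the 3' end minus that at the 5' end was -0.01 for the GAPDH control probe sets and -0.13 for those of ACTB. These controls were themselves lower on the stable Set8b array, as deposited. GAPDH was at -0.32 (3') and -0.31 (5') over vector, and at -0.53 and -0.40 over wild-type Set8b. ACTB was at -0.32 and -0.19 over vector, and at -0.50 and -0.45 over wild-type Set8b. For wild-type Set8b over vector the controls lay between 0.09 and 0.26. Of the 7 mesenchymal markers 6 passed the filter, with a median of 0.24 for stable Set8b over vector, 5 above 0 and 1 below. VIM read 13006, 11123 and 12787 on the stable Set8b, wild-type Set8b and vector arrays, while COL1A2 was dim. The matrix gene FN1 read 7339 with stable Set8b, 3788.5 with wild-type Set8b and 2515 with vector, a difference of 1.54 from vector, with its 5 probe sets between 0.45 and 1.71. CDH2 was at 0.75, COL1A1 at 0.26 (its 4 probe sets between -0.89 and 0.78) and RUNX2 at -0.62 (its 3 between -0.62 and 0.70). Among the epithelial markers KRT8 was at 0.13 and KRT18 at 0.46, and KRT19, KRT5 and CDH1 did not pass. EPCAM read 169 with stable Set8b, 425 with wild-type Set8b and 431 with vector, -1.35 over vector and -1.33 over wild-type Set8b. None of the 3 endothelial and 4 leukocyte markers read above 200.2. Of the 4 that passed, PECAM1 was at 1.21, CD3D at 0.90, CD79A at 0.23 and VWF at -0.44 for stable Set8b over vector. What part any of this has in the results below was not tested.

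The promoters of EZH2, EZH1, PHF19 and SUZ12 are shown because the results turn on EZH2 against EZH1, with PHF19 and SUZ12 as partners, and because each holds a match to the E2F motif. They are RefSeq sequences of GRCh38.p14, 250 bases before the annotated start, on the strand of the gene, and for EZH2 also the first 9 transcribed bases. Capitals mark the E2F site, searched on both strands as TTTCCCGC, TTTGGCGC, TTTCGCGC or TTTGCCGC. The EZH2 stretch is chr7:148884283-148884541 (minus strand), EZH1 is chr17:42745041-42745290 (minus strand), PHF19 is chr9:120877189-120877438 (minus strand) and SUZ12 is chr17:31936757-31937006 (plus strand).
EZH2: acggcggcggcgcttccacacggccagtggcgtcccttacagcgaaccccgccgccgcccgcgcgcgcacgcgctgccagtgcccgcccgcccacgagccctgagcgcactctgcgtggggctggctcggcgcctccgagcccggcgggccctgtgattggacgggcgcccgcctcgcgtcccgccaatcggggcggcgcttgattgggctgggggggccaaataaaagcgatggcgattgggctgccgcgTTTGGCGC
EZH1: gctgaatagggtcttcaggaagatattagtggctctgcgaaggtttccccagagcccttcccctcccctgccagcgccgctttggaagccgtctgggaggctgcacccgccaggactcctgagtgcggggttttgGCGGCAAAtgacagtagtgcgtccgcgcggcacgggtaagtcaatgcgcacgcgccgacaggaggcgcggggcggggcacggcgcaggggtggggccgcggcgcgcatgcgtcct
PHF19: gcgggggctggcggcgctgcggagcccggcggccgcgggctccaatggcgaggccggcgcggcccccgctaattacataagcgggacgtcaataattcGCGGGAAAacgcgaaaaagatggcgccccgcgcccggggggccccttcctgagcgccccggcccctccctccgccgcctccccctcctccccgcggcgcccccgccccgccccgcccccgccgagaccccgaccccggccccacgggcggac
SUZ12: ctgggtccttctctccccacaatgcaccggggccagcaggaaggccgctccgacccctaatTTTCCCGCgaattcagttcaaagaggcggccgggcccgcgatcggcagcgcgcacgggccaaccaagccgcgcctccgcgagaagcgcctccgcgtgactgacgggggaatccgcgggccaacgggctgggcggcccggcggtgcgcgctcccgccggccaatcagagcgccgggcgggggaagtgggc

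All 9 genes matched the promoter table, with 14 entries because some have several starts. Within the whole window of 300 bases an E2F site stood in 5 entries, 1 each of EZH2, EZH1, PHF19, SUZ12 and MTF2, against 3.31% of all 35116 promoters. In EZH2 it covers bases 2 to 9 after the start, in MTF2 bases 6 to 13 on the opposite strand. EZH1, whose signal differed little, holds one as well, at bases -115 to -108 on the opposite strand. The upstream 250 bases of the EZH2 entry shown also hold 4 CCAAT boxes (CCAAT on either strand, the letters bound by NF-Y), the nearest at bases -13 to -9. The other EZH2 entry holds none. Of all promoters 0.874% hold 4 or more, but this cut is the count found in EZH2, so that share does not measure how unusual EZH2 is. EZH1 and MTF2 hold no CCAAT box in the same 250 bases, while each of the other genes, JARID2 included, has an entry with 1 or more. Such a box stood in 10 of the 14 entries, beside 32.0% of all promoters. With the first T of the E2F motif dropped, RBBP4 and RBBP7 held a match too, as did 13.0% of all promoters. The CHR letters TTTGAA, read on both strands, stood in SUZ12 alone among the 9 genes, against 15.2% of all promoters. A match describes letters in a window and not binding.

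EZH2 was the PRC2 gene with the largest difference. Its only probe set, 203358_s_at, read 316 with stable Set8b, 724 with wild-type Set8b and 858.5 with vector. The stable Set8b array was the lowest of the 3 by far, and the wild-type and vector arrays lay close together. Stable Set8b was 2.72-fold lower than vector, -1.44 on the log2 scale, and -1.19 relative to wild-type Set8b. In the ordering of all 11783 genes past the filter, 1.52% lay below EZH2 for stable Set8b over vector and 2.83% relative to wild-type Set8b. For wild-type Set8b over vector EZH2 was at -0.25, within the SD between probe sets. In a bulk sample, fewer cells with a given transcript and less of it per cell cannot be told apart.

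EZH1, the alternative catalytic subunit, did not show this difference. Its brightest probe set, 32259_at, read 243.5 with stable Set8b, 249.7 with wild-type Set8b and 287 with vector, so the 3 arrays lay close together. The differences were -0.24 for stable Set8b over vector, -0.04 for stable Set8b relative to wild-type Set8b and -0.20 for wild-type Set8b over vector, all within the SD between probe sets. A second probe set, 203249_at, read 120.5 with stable Set8b, 112 with wild-type Set8b and 142.5 with vector. The third past the filter, 239197_s_at, read 124.5 with stable Set8b, 84.4 with wild-type Set8b and 94.4 with vector, and here the stable Set8b array was the highest. The EZH1 probe sets past the filter thus ranged from -0.24 to 0.40 for stable Set8b over vector and gave no common direction. The 2 dim ones, 211310_at and 239198_at, read between 16.8 and 39.3 on all arrays.

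**Figure D1:**
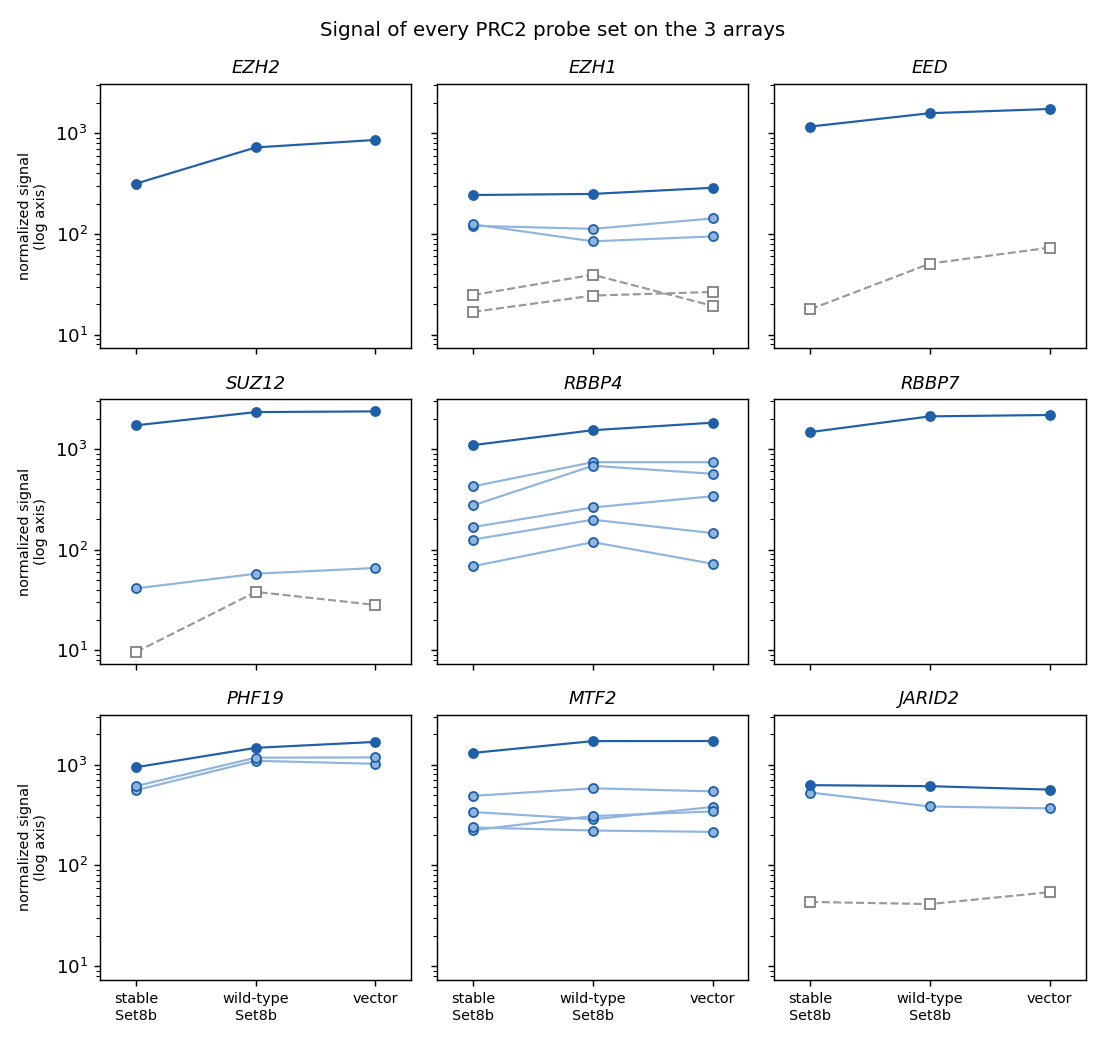
Normalized signal (log axis) of each PRC2 probe set on the stable Set8b, wild-type Set8b and vector arrays, 1 array each. Dark lines are the brightest probe set of a gene, pale lines others past the filter, and dashed grey lines dim ones. The EZH2 line is at 316 on the stable Set8b array against 858.5 on the vector array, while the brightest EZH1 line stays between 243.5 and 287.

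The difference between these differences was taken within each pair of arrays, since levels of different probe sets were not compared. For stable Set8b over vector, EZH2 minus EZH1 was -1.20 by the brightest probe sets. Against the 3 EZH1 probe sets past the filter it lay between -1.84 and -1.20, and against the dim ones it was -0.78 and -1.80. EZH2 was therefore lower relative to every EZH1 probe set, though each of these values uses the same single EZH2 probe set. For stable over wild-type Set8b it was -1.16 by the brightest probe sets, with -1.75 and -1.30 for the others past the filter and -0.66 and -0.52 for the dim ones. For wild-type Set8b over vector it was -0.04, with 0.10 and -0.09 for the others past the filter, so no shift between EZH2 and EZH1 appeared there. The dim 239198_at gave -1.28 in that comparison, on signals of 39.3 with wild-type Set8b and 19.3 with vector.

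**Figure D2:**
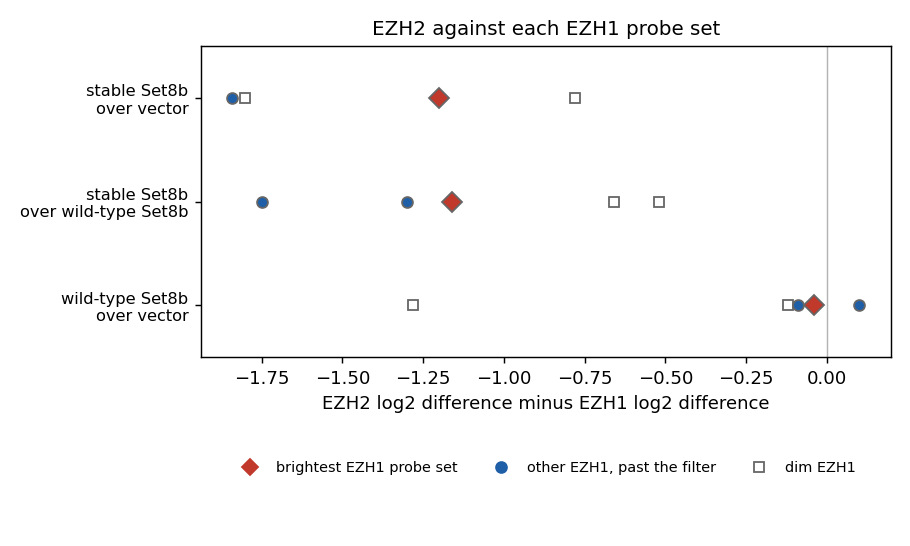
EZH2 log2 difference minus the log2 difference of each EZH1 probe set (x axis) in the 3 comparisons (rows). The diamond is the brightest EZH1 probe set, circles are others past the filter (one lies under the diamond at -1.20 in the top row) and open squares are dim. Both comparisons of stable Set8b lie below 0 for every EZH1 probe set.

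EED and SUZ12 are the core partners without which EZH2 is inactive, EED as the reader of the H3K27 mark and SUZ12 as the scaffold. EED read 1165.5 with stable Set8b, 1583 with wild-type Set8b and 1743 with vector by 209572_s_at. SUZ12 read 1718 with stable Set8b, 2325 with wild-type Set8b and 2364 with vector by 212287_at. In both genes the stable Set8b array was the lowest, and neither reached 2-fold. For stable Set8b over vector EED was at -0.58 and SUZ12 at -0.46, and both were at -0.44 relative to wild-type Set8b. The second SUZ12 probe set past the filter, 1566191_at, was at -0.68 on signals of 41.2 with stable Set8b and 65.7 with vector. The dim probe sets differed more, 210656_at of EED at -2.04 on 17.8 with stable Set8b and 73.0 with vector, and 1566190_at of SUZ12 at -1.55 on 9.6 with stable Set8b and 28.2 with vector. Signals that low may be background, so their size is not a measure of the genes. The probe set shared by SUZ12 and SUZ12P1 was at -0.97 and read 358 with stable Set8b, 552 with wild-type Set8b and 699 with vector.

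RBBP4 and RBBP7 are closely related histone-binding proteins that PRC2 shares with other complexes. RBBP4 read 1093 with stable Set8b, 1537 with wild-type Set8b and 1824 with vector by its brightest probe set, 210371_s_at. That is a difference of -0.74 for stable Set8b over vector and -0.49 over wild-type Set8b. All 6 RBBP4 probe sets lay below 0 in both comparisons of stable Set8b, and all 6 passed the filter, but their sizes varied. For stable Set8b over vector they ranged from -1.04 to -0.08, and 2 of them, 239071_at and 225396_at, were more than 2-fold lower. For stable over wild-type Set8b they ranged from -1.31 to -0.49. For wild-type Set8b over vector they lay on both sides of 0, from -0.37 to 0.72, so the direction of RBBP4 there depended on the probe set. The one at 0.72, 244872_at, was also among the dimmest, at 68.4 with stable Set8b, 118.7 with wild-type Set8b and 72.3 with vector. Probe set 217301_x_at, which can read related transcripts, was at -0.80. RBBP7, read by 201092_at alone, had 1470.0 with stable Set8b, 2109 with wild-type Set8b and 2175.5 with vector. The wild-type Set8b and vector arrays lay close together, and stable Set8b was at -0.57 over vector and at -0.52 over wild-type Set8b.

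PHF19 and MTF2 recruit PRC2 to chromatin and are alternatives to each other. PHF19 was the second lowest of the 9 genes for stable Set8b over vector. Its brightest probe set, 227212_s_at, read 944 with stable Set8b, 1470.2 with wild-type Set8b and 1683 with vector. Probe set 227211_at read 613 with stable Set8b, 1173 with wild-type Set8b and 1181 with vector. Probe set 225533_at read 558 with stable Set8b, 1093 with wild-type Set8b and 1019.6 with vector. In all 3 the stable Set8b array was the lowest, between -0.95 and -0.84 relative to vector and between -0.97 and -0.64 relative to wild-type Set8b. MTF2 was less clear. Its brightest probe set, 203345_s_at, read 1309 with stable Set8b, 1714 with wild-type Set8b and 1717.5 with vector, a difference of -0.39 in both comparisons of stable Set8b. Its 5 probe sets ranged from -0.62 to 0.15 for stable Set8b over vector, 4 of them below 0.

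JARID2, the cofactor that binds nucleosomes in the other form of PRC2, was the only one of the 9 genes above 0 for stable Set8b over vector by the brightest probe set. That one, 203298_s_at, read 626 with stable Set8b, 611 with wild-type Set8b and 565 with vector, a difference of 0.15. The other past the filter, 203297_s_at, read 529 with stable Set8b, 384 with wild-type Set8b and 368 with vector, at 0.52. Both had their highest signal on the stable Set8b array. The dim 240674_at was at -0.32, with 43.3 on the stable Set8b array and 54.1 on the vector array.

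**Figure D3:**
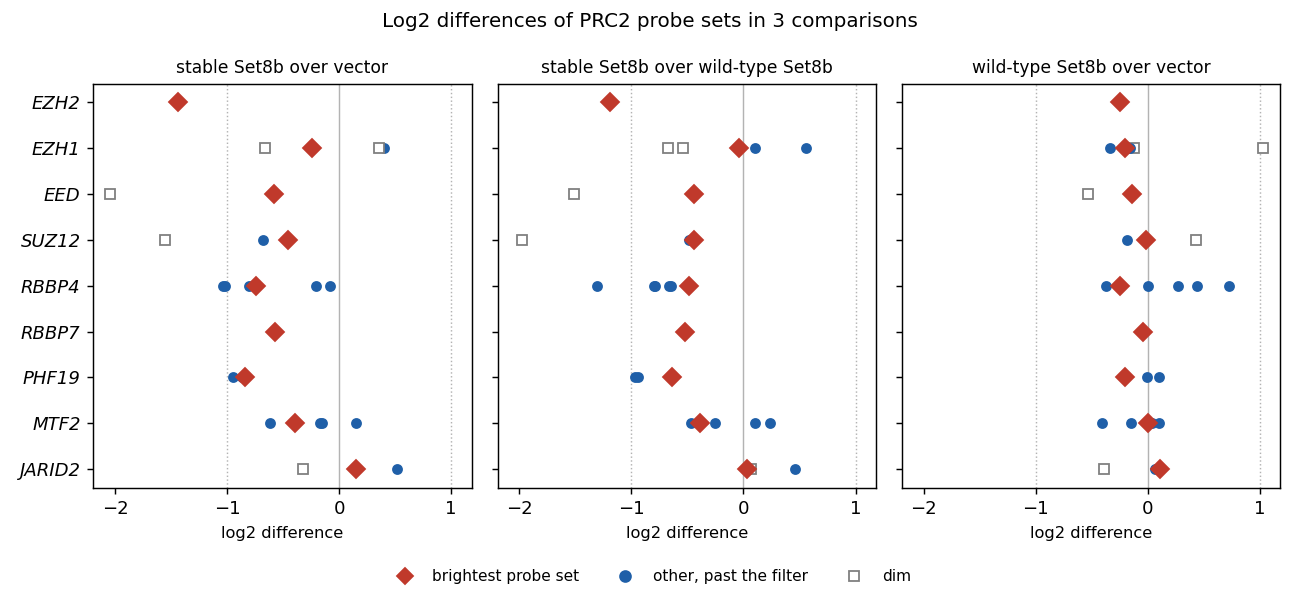
Log2 difference (x axis) of every PRC2 probe set in 3 comparisons, by gene. Red diamonds are the brightest probe set, blue circles others past the filter, open squares dim ones, and dotted lines mark 2-fold. EZH2 lies at -1.44, -1.19 and -0.25 from left to right, and the brightest JARID2 probe set at 0.15, 0.03 and 0.11.

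Counted together, 1 of the 9 genes, EZH2, was at least 2-fold lower with stable Set8b than with vector, beside 4.81% of all genes past the filter. None was 2-fold higher, beside 5.23% of all genes. Below 0 were 8 of the 9, beside 50.6% of all genes, and their median difference was -0.57, beside -0.01 over all genes. By probe set, 3 of 24 were at least 2-fold lower (beside 4.92% of all probe sets) and 20 lay below 0 (beside 51.5%). In order of their brightest probe sets the genes ran from EZH2 (-1.44) over PHF19 (-0.84), RBBP4 (-0.74), EED (-0.58), RBBP7 (-0.57), SUZ12 (-0.46), MTF2 (-0.39) and EZH1 (-0.24) to JARID2 (0.15). EZH2 lay 0.61 from PHF19, and no other step between neighbours was wider than 0.39. The SD between probe sets is for the difference of 1 probe set. A step carries the noise of 2 such differences, so that SD is no measure for it.

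Stable over wild-type Set8b uses the same stable Set8b array and gave values of the same kind. EZH2 was again the one gene past 2-fold on the low side, beside 4.80% of all genes, and none was 2-fold higher, beside 4.45%. Below 0 were 8 of the 9, beside 51.4% of all genes, with EZH1 so close to 0 that it was at 0.21 when its probe sets were averaged. PHF19 was at -0.64, RBBP7 at -0.52, RBBP4 at -0.49, EED and SUZ12 at -0.44, MTF2 at -0.39, EZH1 at -0.04 and JARID2 at 0.03. The median was -0.44, beside -0.02 over all genes. For wild-type Set8b over vector none of the 9 genes was past 2-fold in either direction, beside 0.653% of all genes lower and 1.02% higher. The values there ran from -0.25 (EZH2 and RBBP4) to 0.11 (JARID2), with a median of -0.14 beside 0.01 over all genes, and each lay within the SD between probe sets. By the brightest probe sets 8 of the 9 lay below 0, beside 48.6% of all genes, but RBBP7 (-0.04), SUZ12 (-0.02) and MTF2 (-0.00) were very near it. While 20 of 24 probe sets lay below 0 for stable Set8b over vector, 15 of 24 did so for wild-type Set8b over vector. The share of all probe sets below 0 in that comparison is not given here. After median centring in place of quantile normalization, the 9 genes had a median of -0.31 there, beside -0.13 over all genes. EZH2 and RBBP4 were then at -0.41 and PHF19 at -0.37, past the SD of 0.36.

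The rest of the Polycomb system was read through lists of genes named by function, for stable Set8b over vector. Over all genes past the filter, 4.81% were at least 2-fold lower, 5.23% at least 2-fold higher and 50.6% below 0. All 6 further PRC2 cofactors passed the filter, with 3 above and 3 below 0, a median of 0.06 and none past 2-fold. LCORL, which encodes a PRC2-associated protein, read 349.5 with stable Set8b, 470.0 with wild-type Set8b and 684 with vector (-0.97), and LCOR, its relative, was at -0.41. EPOP, a PRC2 cofactor that also binds Elongin, read 175 with stable Set8b, 168.0 with wild-type Set8b and 106 with vector (0.72), so both Set8b arrays were the higher ones. PHF1, the remaining Polycomb-like gene, was at 0.20 by one probe set and at -0.30 by the other.

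Of the 24 genes listed for PRC1, which ubiquitinates histone H2A and reads the PRC2 mark, 20 passed the filter. Their median was -0.15, with 15 below 0 (beside 50.6% of all genes). At least 2-fold lower was 1 (beside 4.81%), and none was 2-fold higher (beside 5.23%). CBX2, a chromodomain subunit that binds methylated H3K27, read 884.5 with stable Set8b, 2077.5 with wild-type Set8b and 2132 with vector by 226473_at (-1.27), but its other probe set was at -0.18. PCGF1, the RING-finger partner in a variant complex, was at -0.87, but its other probe set was at 0.16. PHC2, a subunit that polymerises, was at 0.88 by its only probe set past the filter. BCORL1 was at 0.70 and, by its other probe set, at -0.17. The 8 measured H3K27 demethylases and Polycomb antagonists had a median of -0.28 with none past 2-fold. Among them the demethylase KDM6B was at 0.58 and ASXL1, part of the H2A deubiquitinase, at -0.97, with its 6 probe sets reaching up to 0.04.

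RBBP4 and RBBP7 also serve NuRD, SIN3, CAF-1, MuvB and NURF, and 22 of 23 listed partners in those complexes passed the filter. Their median was -0.27, with 14 below 0 (beside 50.6% of all genes) and 1 at least 2-fold lower (beside 4.81%). That one was CHAF1A, the large subunit of the CAF-1 histone chaperone, at -1.03, and all its 3 probe sets were at or below that value. MBD3 of NuRD was at -0.82, with its 3 probe sets between -1.54 and -0.72. LIN54 of MuvB was at -0.79, and LIN52 of the same complex at -0.78 by one probe set and at -0.10 by the other.

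A list of 19 measured E2F target genes of DNA synthesis was set beside these. Every one of the 19 was below 0, beside 50.6% of all genes. By 2-fold or more 12 of them were lower, beside 4.81% of all genes, and the median was -1.11. MCM7, part of the replicative helicase, was at -1.65, the cyclin gene CCNE2 at -1.53, MCM6 at -1.42 and the licensing factor CDT1 at -1.40. EZH2 at -1.44 lay within the range of this list, and the other 8 PRC2 genes lay above its median. For stable over wild-type Set8b the list had a median of -1.13, and for wild-type Set8b over vector it had -0.05. What part the lower signal of cell cycle genes has in that of EZH2 was not tested.

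**Figure D4:**
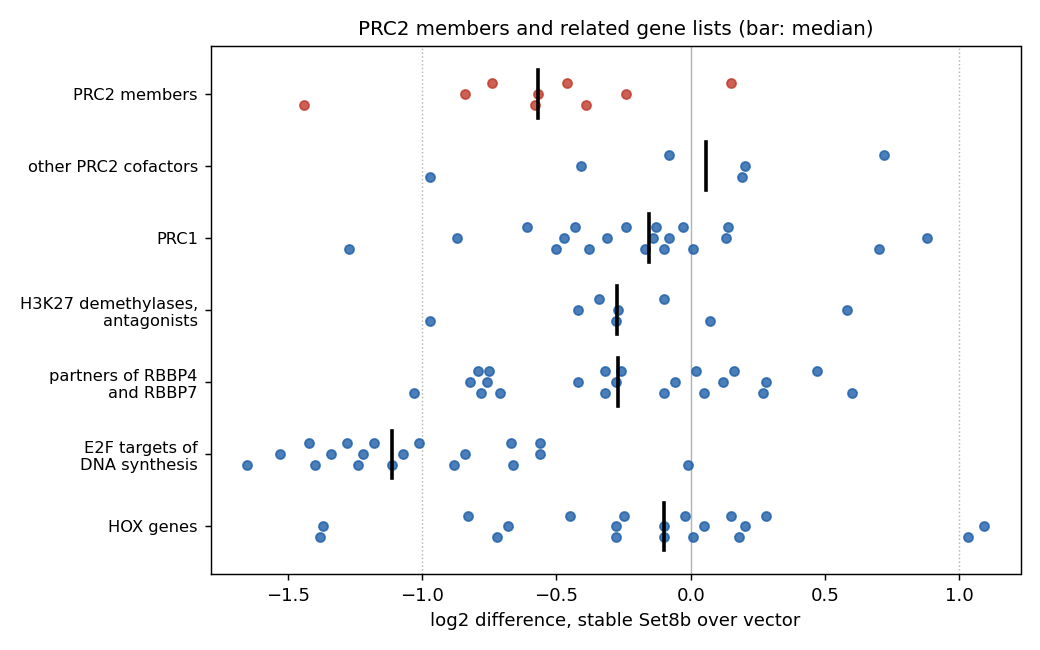
Log2 difference for stable Set8b over vector (x axis) of each measured gene in 7 lists, by its brightest probe set. Black bars are medians, dotted lines mark 2-fold, and vertical offsets within a row only separate points. The PRC2 genes in red have a median of -0.57, between the E2F targets at -1.11 and the PRC1 genes at -0.15.

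Likeness was taken as the distance over both differences from vector, among genes past the filter whose brightest probe set does not end in _x_at. The genes with the pattern most like EZH2 were ZNF266, TLCD4, KNL1, RMI2 and MCM6. Their distances from EZH2 were between 0.017 and 0.047 on the log2 scale, over the 3 arrays. KNL1, a kinetochore scaffold, had 3 probe sets between -1.74 and -1.48 for stable Set8b over vector. MCM6 read 2621 with stable Set8b, 5751 with wild-type Set8b and 7032 with vector. Those most like EZH1 were ZNF32, TFEB, DR1, TUFM and CCNYL1, with distances between 0.005 and 0.016. Several of these have a second probe set that went elsewhere, as TFEB at -1.16, so with 3 arrays such likeness describes single probe sets.

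Genes that PRC2 is known to silence were looked at last. CDKN2A and CDKN2B of the INK4 locus did not pass the filter by any of their 5 probe sets. The brightest CDKN2A probe set read 42.1 with stable Set8b, 38.5 with wild-type Set8b and 41.0 with vector, so no level above the dim range appeared on any array. Of 39 listed HOX genes, 28 were named by a probe set of their own and 20 passed the filter. Their median was -0.10 for stable Set8b over vector, with 8 above 0 and 12 below (beside 50.6% of all genes below 0). At least 2-fold higher were 2 (beside 5.23% of all genes). HOXB8 read 159.7 with stable Set8b, 63.9 with wild-type Set8b and 74.8 with vector. HOXB9 read 377.5 with stable Set8b, 254 with wild-type Set8b and 184 with vector. At least 2-fold lower were 2, HOXD10 at 55.0 with stable Set8b, 134.5 with wild-type Set8b and 143.0 with vector, and HOXD11 at 30.4 with stable Set8b, 59.2 with wild-type Set8b and 78.4 with vector. HOXB9 was at 0.70 by its second probe set, and HOXB8, HOXD10 and HOXD11 rest on 1 probe set past the filter each. The HOX genes past the filter thus had no common direction. Over the ways of processing described below, 0 to 5 HOX genes were 2-fold higher and 0 to 2 were 2-fold lower. Of the dim ones, HOXB1, HOXB4, HOXD1, HOXD4, HOXD12 and HOXD13 read higher with stable Set8b than with vector. HOXA2 and HOXC12 read lower. These signals may be background. Histone methylation itself was not measured here.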

How the data were processed

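The study measured total RNA of U2OS cells on Affymetrix arrays, 1 array per construct, and groups were taken from the labels. The authors deposited a linear intensity value per probe set, 54675 per array. The sources used here do not give the software behind them. With 2% of values dropped from either tail, the mean was 250.0 on every array.

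From these, 62 control probe sets were left out. The log2 medians of the arrays spanned 0.146, above the limit of 0.1, so quantile normalization was applied. Signals below the 20th percentile (7.7) were raised to it before taking log2. Of 41091 probe sets with 1 gene symbol, 20546 had a mean log2 signal at or above the median of these means (51.4 as a signal). The brightest stood for each of 11783 genes. Python 3.11.15 with numpy 2.4.6, pandas 2.3.3 and matplotlib 3.10.9 was used. The steps were tested on simulated data.

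The 9 genes were named by their place in PRC2, from each list up to 4 genes that differed most between the stable Set8b and vector arrays (among the markers also VIM, COL1A2 and those that did not pass, to check the cell type), and 5 genes nearest to EZH2 and to EZH1. For the nearest genes, those whose brightest probe set ends in _x_at were left out. The genes and lists were chosen with earlier results of these data known. No test was possible. Quantile normalization removes any overall shift, and background compresses differences of dim probe sets. Listed symbols without a probe set of their own were not analysed here.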

Additional observations from a re-analysis of the deposited data

How the results depend on the processing

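The values of the 9 genes and the counts over all genes were recomputed from deposited signals, after median centring in place of quantile normalization, with the floor removed, raised to the 40th percentile or set at a signal of 50, with the filter removed or keeping the brightest 25%, by averaging the probe sets of a gene, and without the _x_at and _s_at ones. EZH2 lay between -1.55 and -1.44 for stable Set8b over vector and between -1.19 and -1.14 over wild-type Set8b in all settings that measure it, and, where both genes were measured, EZH2 minus EZH1 between -1.41 and -1.20 and between -1.40 and -1.15. EZH1 has no probe set among the brightest 25%. EZH2 has no probe set without the _s_at ending, so its count past 2-fold rests on 203358_s_at alone. Without the _x_at and _s_at probe sets 6 of the 9 genes were measured, with EZH2, EED and JARID2 left out. The count of 1 then came from RBBP4, at -1.04 over vector and -1.31 over wild-type Set8b. Of all 8941 genes in that setting, 463 were 2-fold lower over vector and 441 over wild-type Set8b. RBBP4 for wild-type Set8b over vector was at -0.25, but at 0.14 by averaging probe sets and at 0.27 without those endings. EZH1 for stable over wild-type Set8b ranged from -0.04 to 0.21, and JARID2 for wild-type Set8b over vector from -0.04 to 0.11. With a threshold of 1.5-fold in place of 2-fold, 3 of the 9 genes were lower for stable Set8b over vector and 2 for stable over wild-type Set8b. With 3-fold the counts were 0 and 0. The shares of all genes at these thresholds are not given here, so these counts have nothing to be set beside. Centring on medians moved the median of all genes to -0.12 for stable Set8b over vector and to -0.13 for wild-type Set8b over vector, and the 9 genes with it (EZH2 to -1.55, and for wild-type Set8b over vector EZH2 to -0.41). The counts over all 11783 genes for stable Set8b over vector were 567 lower and 616 higher, and 717 and 503 after centring. With no filter they were 1813 and 2032 of 19775 genes, and among the brightest 25% they were 273 and 252 of 7327 genes. For wild-type Set8b over vector the counts, each of 11783 genes, were 77 and 120, and 129 and 91 after centring, 62 and 153 as deposited. The 6 related lists were recomputed the same way, a choice made after seeing the data. For stable Set8b over vector their medians lay between -1.22 and -1.07 for the E2F targets, -0.27 and -0.15 for PRC1, -0.37 and -0.10 for the partners of RBBP4 and RBBP7, -0.35 and -0.24 for the H3K27 demethylases and antagonists, -0.18 and -0.01 for the HOX genes, and -0.08 and 0.19 for the further cofactors, where the sign changed. The HOX genes 2-fold higher numbered 0 to 5 and those 2-fold lower 0 to 2. Genes 2-fold lower numbered 9 to 13 among the E2F targets, 0 to 2 among the partners, and 0 to 1 in each of the other 3 lists. Likeness and markers were not recomputed. No paired analysis was possible because each group has 1 array. Precision is limited by having 1 array per construct.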
